A study of Mus musculus with 6 samples.

Results

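The loci of 10 regulators of the Polycomb and trithorax systems were examined in chromatin accessibility data from mouse haematopoietic stem cells (HSCs). They comprised Ezh2, Ezh1, Eed and Suz12 of Polycomb repressive complex 2 (PRC2), Bmi1 and Cbx7 of Polycomb repressive complex 1 (PRC1), Asxl1 of the Polycomb repressive deubiquitinase (PR-DUB), the trithorax methyltransferase Kmt2a, and the histone demethylases Kdm6a and Kdm6b. Peaks on chromosomes 1 to 19, X and Y that overlapped by at least 1 bp in any of 6 libraries were merged into union regions, and every region in or within 50 kb of the RefSeq span of a member gene in the mouse build mm10 was kept. This gave 121 regions of 82993 in all. ATAC-seq, which tags accessible DNA with a transposase that carries sequencing adapters, had been applied to HSCs of bone marrow, sorted as CD48-negative, CD150-positive LSK cells at about 5000 cells per library. All libraries came from wild-type C57BL/6J mice, 3 after tunicamycin (2 mg per kg, given intraperitoneally) and 3 after DMSO by the same route. Tunicamycin blocks N-linked glycosylation and thereby stresses the endoplasmic reticulum, and DMSO is its solvent. The age of the mice and the time after injection were not given in the sources used here, nor whether each library came from a separate animal, so p-values reflect the scatter among these 6 libraries and that scatter may be technical.

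PRC2 methylates histone H3 at lysine 27, PRC1 binds that mark and ubiquitinates histone H2A, and PR-DUB removes the ubiquitin. KMT2A methylates histone H3 at lysine 4 at active genes, and KDM6A and KDM6B remove methyl groups from lysine 27, so trithorax proteins and these demethylases oppose Polycomb silencing. In HSCs the balance of these systems is known for its part in self-renewal, and several of the genes are recurrently mutated or rearranged in leukaemia.

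The promoters of 5 members are shown because they span the range of accessibility found at the member gene starts. Among the members these starts were strong (Suz12, Ezh2), intermediate (Kmt2a, Cbx7) or weak (Bmi1). Each line gives 250 bases before and 50 bases after the RefSeq start in GRCm38.p6, the assembly that mm10 denotes, 5′ to 3′ on the strand of the gene. Capitals mark matches on either strand to the CCAAT box (CCAAT), the GC box (GGGCGG) and the E-box (CACGTG).
Ezh2 (chr6:47594981-47595280, minus strand): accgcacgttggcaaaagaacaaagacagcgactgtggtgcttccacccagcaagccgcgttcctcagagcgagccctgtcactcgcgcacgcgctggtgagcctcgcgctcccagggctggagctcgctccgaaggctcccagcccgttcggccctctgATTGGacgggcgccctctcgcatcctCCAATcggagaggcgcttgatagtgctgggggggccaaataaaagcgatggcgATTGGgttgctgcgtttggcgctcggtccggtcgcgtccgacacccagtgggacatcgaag
Suz12 (chr11:79992856-79993155, plus strand): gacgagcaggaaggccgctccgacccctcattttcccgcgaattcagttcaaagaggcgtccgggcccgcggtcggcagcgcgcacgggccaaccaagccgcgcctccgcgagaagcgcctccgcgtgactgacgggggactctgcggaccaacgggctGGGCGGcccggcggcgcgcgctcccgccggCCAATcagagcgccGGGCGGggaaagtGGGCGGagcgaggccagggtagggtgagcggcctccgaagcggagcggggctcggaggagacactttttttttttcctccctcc
Bmi1 (chr2:18676768-18677067, plus strand): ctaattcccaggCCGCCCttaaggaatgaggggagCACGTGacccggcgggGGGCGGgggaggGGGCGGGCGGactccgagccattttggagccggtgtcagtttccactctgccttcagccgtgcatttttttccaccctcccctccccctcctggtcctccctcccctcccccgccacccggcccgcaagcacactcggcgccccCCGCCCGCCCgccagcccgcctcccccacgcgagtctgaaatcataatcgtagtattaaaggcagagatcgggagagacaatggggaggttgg
Cbx7 (chr15:79932597-79932896, minus strand): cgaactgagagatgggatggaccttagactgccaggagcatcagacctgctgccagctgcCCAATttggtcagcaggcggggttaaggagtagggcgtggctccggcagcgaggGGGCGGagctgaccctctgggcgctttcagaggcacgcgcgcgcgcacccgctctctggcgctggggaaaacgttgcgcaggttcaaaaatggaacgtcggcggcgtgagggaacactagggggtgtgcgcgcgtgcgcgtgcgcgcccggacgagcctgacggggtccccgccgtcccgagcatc
Kmt2a (chr9:44881240-44881539, minus strand): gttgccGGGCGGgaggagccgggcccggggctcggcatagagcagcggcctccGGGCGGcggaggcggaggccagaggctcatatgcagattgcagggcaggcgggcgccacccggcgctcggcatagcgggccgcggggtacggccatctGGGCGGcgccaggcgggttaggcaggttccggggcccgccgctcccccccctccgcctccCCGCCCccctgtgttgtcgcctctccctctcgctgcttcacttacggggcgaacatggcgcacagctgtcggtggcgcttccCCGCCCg
A promoter sequence was matched for 9 of the 10 members, all but Kdm6b. Their median GC content was 64.3% with 23 CpG dinucleotides per window, against 56.3% and 13 over 21262 protein-coding promoter windows. GC content was highest in the Kmt2a window at 75.7%, and the most CpG dinucleotides, 41, stood in the Suz12 window. The lowest GC content, 54%, and the fewest CpG dinucleotides, 13, were those of Asxl1, whose start was nevertheless among the strongest regions described below.

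Of 11 short motifs searched on both strands, the GC box was found in 6 of the 9 member windows (46.2% of all windows) and the CCAAT box in 4 (38.2%). The GC box occurred 6 times at Bmi1, 5 times at Kmt2a and 3 times at Suz12, with some Bmi1 matches overlapping one another, while the Ezh2 window held 3 CCAAT boxes and no GC box. The E-box stood in the Bmi1 and Kdm6a windows (7.84% of all windows), and the NRF1 core TGCGCA in those of Ezh1 and Cbx7 (9.74%). CCACG, the second part of the ER stress response element, was found in 4 windows, those of Ezh1, Bmi1, Cbx7 and Kdm6a (37.4%). The full element was not among the motifs searched. The letters CCACG also lie in the reverse complement of the unfolded protein response element TGACGTGG, which no member window held (0.705%). Also without a match were TGATGNAA (3.60%), the CRE TGACGTCA (2.23%), the ETS motif CCGGAAGT (5.15%), the GATA motif AGATAA (9.65%) and the AP-1 motif TGANTCA (6.99%). A match is a run of letters and not a measured binding site.

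Peaks had been called in each library on its own, and the libraries differed in how many they held. The tunicamycin lists held 44952, 56865 and 47789 peaks on the chromosomes used, against 62478, 38217 and 28501 in the DMSO lists, so that the longest and the shortest list were both DMSO. Read depth cannot be taken from peak lists, and a region without a call is not thereby closed. Of 9 genes that mark HSCs, 6 had a region within 1 kb that was called in all 6 libraries (not Slamf1, Ly6a or Fgd5). The same held for Cd48, whose protein the sort selected against, and for 1 of 6 neutrophil and monocyte genes, 3 of 5 erythroid genes, 1 of 6 lymphoid genes and 2 of 6 stromal and endothelial genes. The fold over background and the −log10 p- and q-values of each peak are the authors' own. Each region was therefore described by the percentile, among all peaks of the same library, of its highest peak by fold. Lists of unequal length give percentiles that describe a library and show no change between libraries.

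**Figure D1:**
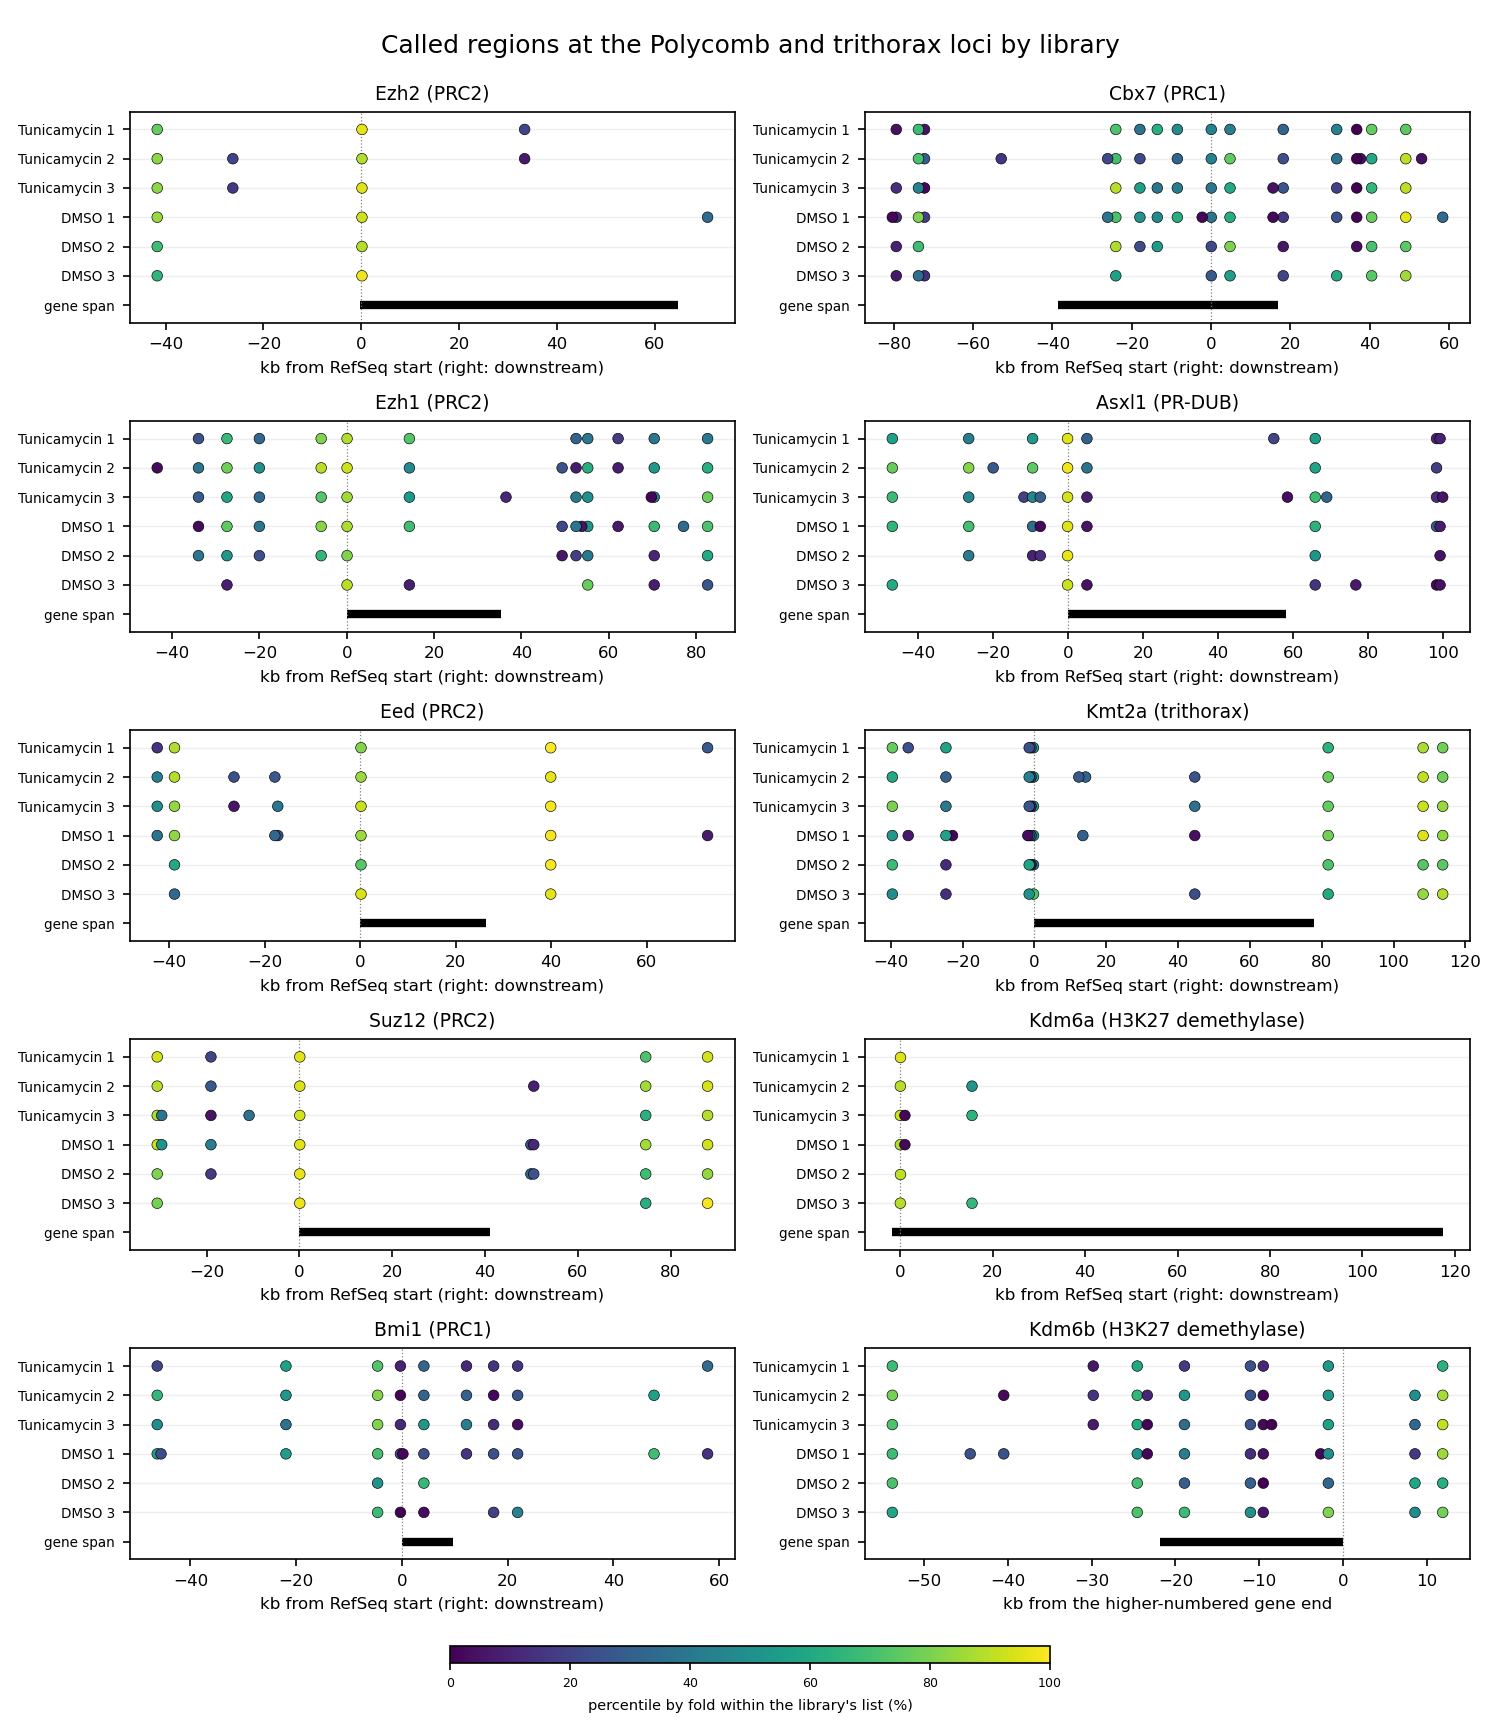
Called regions at each locus by library, with tunicamycin libraries above DMSO libraries. Each point is a region called by that library, placed by its centre in kb from the RefSeq gene start (for Kdm6b from the higher-numbered gene end, in chromosome order) and coloured by its percentile by fold within the library's list, and the black bar is the gene span. Start regions of Ezh2, Suz12 and Asxl1 are bright in all 6 libraries, that of Bmi1 is dark in 5 and not called in DMSO library 2, and Kdm6b has several regions inside the gene.

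Most member promoters were called in every library. Regions called in all libraries of a treatment and none of the other were rare at these loci, as over all regions. Called in all tunicamycin libraries alone were 0.826% of member regions, against 0.683% of all regions. In all DMSO libraries alone it was 0%, against 0.0976%. Of the 121 regions, 40 (33.1%) were called in all 6 libraries, against 25.1% of all union regions and 26.7% of those within 50 kb of a protein-coding gene. Another 30 member regions (24.8%) were called in 1 library only, against 32.4% of all regions. The median number of regions per locus was 13, against 8 for all 21883 protein-coding genes, and that of regions called in all libraries 3.5 against 2. These counts were not divided by the length of the locus, which grows with the gene span.

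By position, 8 of the 9 regions over a member's own promoter window were called in all 6 libraries, and these had a median percentile of 88.9. Regions over the promoter of a neighbouring gene followed, with 10 of 14 called in all libraries and a median percentile of 70.7. Inside another gene the numbers were 10 of 43 and 66.6, and outside genes 5 of 29 and 72.9. Regions inside a member gene but over no promoter window were called in all libraries in 7 of 26 cases. Their median percentile of 40.9 was the lowest of these classes. Kdm6b had no promoter window, so all 6 regions in that gene fell into this class, including 4 of the 7 called in all libraries. Among these 4 was the region described below in place of the Kdm6b start. Of the 9 members with a promoter sequence, 8 had a region called in all 6 libraries over the start, against 45.8% of 17491 protein-coding genes. The position classes were not counted over all regions, so their order is not shown to be particular to these loci. Among all regions called in all libraries, those over protein-coding promoters had a median percentile of 83.0, against 66.3 for the others.

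**Figure D2:**
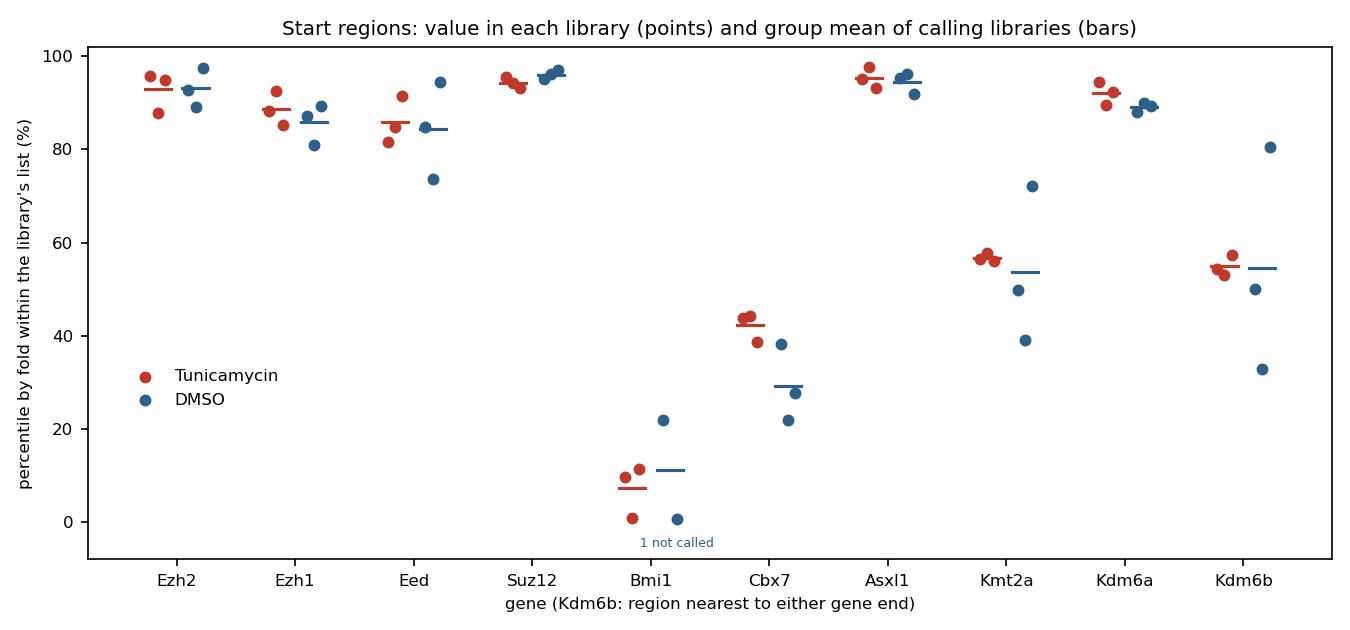
Percentile by fold of the region over each gene start, with 1 point per library, tunicamycin left and DMSO right of each gene name, and bars at the mean of the libraries that called the region. Means of Ezh2, Ezh1, Eed, Suz12, Asxl1 and Kdm6a lie between 84.3 and 96.1 in both groups, Kmt2a, Kdm6b and Cbx7 lie lower, and Bmi1 is lowest with 1 DMSO library without a call.

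All 4 PRC2 genes had strong start regions in every library. Ezh2, the main methyltransferase of PRC2 in dividing cells, had a start region of 1534 bp (chr6:47594124-47595657), which also covered the promoter of the non-coding gene F830010H11Rik. Its percentiles were 95.8, 87.9 and 94.97 in the tunicamycin libraries, against 92.7, 89.1 and 97.6 in the DMSO libraries. The groups overlapped, with means of 92.9 ± 4.36 in tunicamycin and 93.1 ± 4.27 in DMSO libraries (SD, n = 3 each). The locus was otherwise sparse: of its 5 regions, the only other one called in all libraries lay outside genes at chr6:47636342-47637116, 41.3 kb from the start, and a region inside the gene was called by tunicamycin libraries 1 and 2 alone.

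Ezh1, the paralogue that predominates in resting cells, had 17 regions, 5 of them present in every library. The start region (chr11:101226019-101226759) lay at percentiles 88.2, 92.6 and 85.2 in the tunicamycin libraries, against 87.3, 80.9 and 89.3 in the DMSO libraries. It was the strongest of the locus, and its groups overlapped, at 88.6 ± 3.72 in tunicamycin and 85.8 ± 4.41 in DMSO libraries (SD, n = 3 each). A region inside the gene, 14.2 kb from the start (chr11:101211939-101212303), was called in all libraries but DMSO 2. The neighbouring promoters of Tubg2, Plekhh3 and Vps25 were called in every library and that of Wnk4 in all but DMSO 3. DMSO library 3 called 6 of the 17 regions, against 11 to 13 in the tunicamycin libraries and 14 and 10 in DMSO libraries 1 and 2.

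Eed, the subunit that reads trimethylated lysine 27, had a start region of 1255 bp (chr7:89980151-89981405). The percentiles were 81.5, 84.8 and 91.5 in the tunicamycin libraries, against 84.8, 73.7 and 94.4 in the DMSO libraries. The DMSO libraries held both the lowest and the highest value, and the means were 86.0 ± 5.09 in tunicamycin and 84.3 ± 10.4 in DMSO libraries (SD, n = 3 each). The strongest region of the locus belonged to the promoter of Hikeshi, a neighbour 13.2 kb away from the Eed span (chr7:89940670-89941462), with percentiles of 99.3, 95.8 and 98.5 in tunicamycin and 98.8, 98.5 and 95.5 in DMSO libraries. It was also the strongest of all 40 member regions called in every library.

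Suz12, the scaffold subunit on which PRC2 is built, had a start region of 1438 bp (chr11:79992458-79993895), with Asxl1 among the strongest of the 10 members. Its percentiles were 95.6, 94.3 and 93.1 in the tunicamycin libraries, against 95.02, 96.1 and 97.1 in the DMSO libraries. The groups overlapped in this narrow range, with means of 94.4 ± 1.25 in tunicamycin and 96.1 ± 1.03 in DMSO libraries (SD, n = 3 each). Among 7437 regions over protein-coding promoters called in all libraries, 85.4% had a lower mean percentile, against 78.1% for Ezh2, 60.2% for Ezh1 and 55.0% for Eed. Their median was 83.0, with quartiles of 68.1 and 92.0, so that all 4 PRC2 starts lay above the median.

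Both PRC1 genes had weaker starts by fold than any PRC2 gene. Ranked by −log10 p in place of fold, mean percentiles over the calling libraries were 26.6 at Bmi1 and 61.4 at Cbx7. They were 82.8 at Ezh1, 92.5 at Eed and 95.1 at Ezh2. Bmi1, the ring finger partner that stimulates the ubiquitin ligase of PRC1 and is needed for HSC self-renewal, had a start region of 577 bp (chr2:18676444-18677020). The percentiles were 9.68, 0.81 and 11.3 in the tunicamycin libraries, against 21.8 and 0.59 in DMSO libraries 1 and 3, and DMSO library 2 did not call it. The groups overlapped, although DMSO library 1 lay above every tunicamycin library, at 7.27 ± 5.65 in tunicamycin (SD, n = 3) and 11.2 ± 15.0 in DMSO libraries (SD, n = 2). The strongest region of the locus was the promoter of Commd3, the upstream neighbour, 4.13 kb from the Bmi1 start (chr2:18671947-18672890). It was called in every library, at 72.7, 81.9 and 80.6 in tunicamycin and 70.7, 51.2 and 68.0 in DMSO libraries.

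Bmi1 was also the locus where single DMSO libraries differed most in number of calls. The tunicamycin libraries called 9, 9 and 8 of its 12 regions, against 12, 2 and 5 in the DMSO libraries. DMSO library 1 called every region and DMSO library 2 called the Commd3 promoter and 1 region inside Bmi1 (chr2:18680937-18681392). This intragenic region was the only one inside the gene that all libraries called, at percentiles of 33.0, 31.7 and 53.3 in tunicamycin and 23.7, 66.6 and 3.20 in DMSO libraries.

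Cbx7, the PRC1 chromodomain protein that binds methylated lysine 27, had the most regions of the 10 loci, 22, with 9 in the gene and 7 called in all libraries. Its start region was 710 bp long (chr15:79932242-79932951), at percentiles of 43.8, 44.2 and 38.7 in the tunicamycin libraries, against 38.1, 21.9 and 27.6 in the DMSO libraries. Every tunicamycin value lay above every DMSO value within the lists, with means of 42.2 ± 3.09 in tunicamycin and 29.2 ± 8.20 in DMSO libraries (SD, n = 3 each). Ranked among the 20810 regions called in all 6 libraries, a set of equal length in each, the start lay at 14.9, 10.0 and 11.0 in tunicamycin and 7.34, 7.46 and 16.2 in DMSO libraries, and the groups overlapped. Only 4.01% of the protein-coding start regions called in all libraries were weaker by fold. The mean percentile of the Cbx7 start was 35.7 by fold and 61.4 by −log10 p.

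The stronger elements of the Cbx7 locus lay away from this start, which is itself inside the RefSeq span, since the annotated gene reaches further upstream. Within the span, the region 23.8 kb upstream of the start (chr15:79956484-79956858) had percentiles of 71.6, 70.1 and 89.2 in tunicamycin and 71.3, 87.8 and 57.1 in DMSO libraries. Another, 4.45 kb downstream of it (chr15:79927552-79928197), lay at 42.5, 75.6 and 60.3 in tunicamycin and 62.3, 80.4 and 55.5 in DMSO libraries. Neither separated the groups. The strongest region stood outside genes, 48.8 kb from the start (chr15:79883270-79883836), with means of 84.9 ± 8.78 in tunicamycin and 85.3 ± 10.8 in DMSO libraries (SD, n = 3 each). Regions at the neighbouring genes Apobec3 and Pdgfb made up much of the rest.

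Asxl1, the partner that activates the deubiquitinase BAP1, had a start region of 893 bp (chr2:153345290-153346182), which overlapped the gene 2500004C02Rik. The percentiles were 95.1, 97.8 and 93.1 in the tunicamycin libraries, against 95.3, 96.2 and 92.0 in the DMSO libraries. The groups overlapped closely, at 95.3 ± 2.37 in tunicamycin and 94.5 ± 2.25 in DMSO libraries (SD, n = 3 each), and 84.5% of protein-coding start regions were weaker. In contrast to this start, the rest of the locus was called unevenly. Of the 16 regions, the start among them, 2 were called in all libraries and 7 in a single one. A region 4.75 kb into the gene (chr2:153350579-153351209) was called in all libraries but DMSO 2, at 30.6, 37.9 and 8.97 in tunicamycin and 5.24 and 4.38 in DMSO libraries 1 and 3.

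Kmt2a, the trithorax H3K4 methyltransferase that is rearranged in acute leukaemia, had a start region of 694 bp (chr9:44881205-44881898) of intermediate strength among the members. Its percentiles were 56.4, 57.8 and 56.0 in the tunicamycin libraries, against 49.9, 39.1 and 72.1 in the DMSO libraries. The tunicamycin values lay within 1 narrow band inside the wider DMSO range, at 56.7 ± 0.926 in tunicamycin and 53.7 ± 16.8 in DMSO libraries (SD, n = 3 each). Only 12.9% of protein-coding start regions were weaker by fold, although its promoter had the highest GC content of the members. The mean percentile of the Kmt2a start was 55.2 by fold and 76.5 by −log10 p. Upstream of the start lay a weaker region called in all but DMSO 3 (chr9:44882018-44882462) and another called in every library (chr9:44882586-44882911). Of 15 regions 7 were called in all libraries, and 3 of these covered promoters of the neighbours Ift46, Tmem25 and Atp5l, with Ift46 the strongest at 90.1 ± 2.46 in tunicamycin and 84.1 ± 10.6 in DMSO libraries (SD, n = 3 each).

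Kdm6a, the X-linked H3K27 demethylase that also belongs to trithorax-type complexes, had 3 regions, all in the gene, the fewest of the 10 loci. The start region (chrX:18161916-18163273, 1358 bp) lay at percentiles of 94.6, 89.6 and 92.4 in the tunicamycin libraries, against 88.0, 90.0 and 89.2 in the DMSO libraries. The groups overlapped at about 90, with means of 92.2 ± 2.49 in tunicamycin and 89.1 ± 1.01 in DMSO libraries (SD, n = 3 each). A region 15.3 kb into the gene (chrX:18177831-18178375) was called by tunicamycin libraries 2 and 3 and DMSO library 3, and the third region, beside the start, by tunicamycin library 3 and DMSO library 1.

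Kdm6b, the demethylase whose gene is inducible by inflammatory signals in other blood cells, had 14 regions, 6 of them in the gene and 7 called in all libraries. Its strand is not in the annotation used here, so the region nearest to either gene end was described in place of a start region (chr11:69417942-69419247, 1306 bp, overlapping the gene Gm51903). The percentiles were 54.3, 53.0 and 57.3 in the tunicamycin libraries, against 50.0, 32.9 and 80.6 in the DMSO libraries. As at Kmt2a, the tunicamycin values lay inside the DMSO range, with means of 54.9 ± 2.22 in tunicamycin and 54.5 ± 24.2 in DMSO libraries (SD, n = 3 each). Over the 6 libraries the mean percentile was 54.7 by fold and 84.9 by −log10 p.

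Inside Kdm6b stood a pair of wide but weakly enriched regions called in every library. The region chr11:69408565-69410042 was 1478 bp long, wider than 96.4% of all regions called in all 6 libraries, and lay at percentiles of 25.1, 25.9 and 25.1 in tunicamycin and 13.1, 30.4 and 50.9 in DMSO libraries. The adjacent region chr11:69410220-69411455 was 1236 bp long, wider than 90.0%, and lay at 11.3, 1.80 and 2.22 in tunicamycin and 4.19, 0.16 and 5.48 in DMSO libraries. By comparison, the 2419 regions of at least 1200 bp called in all libraries had a median percentile of 77.6, with quartiles of 62.5 and 87.8. Ranked by −log10 p in place of fold, the wider region had a mean percentile of 81.7 over the 6 libraries, against 28.4 by fold, and the adjacent one 56.0, against 4.19 by fold. Both were described after their values were seen.

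**Figure D3:**
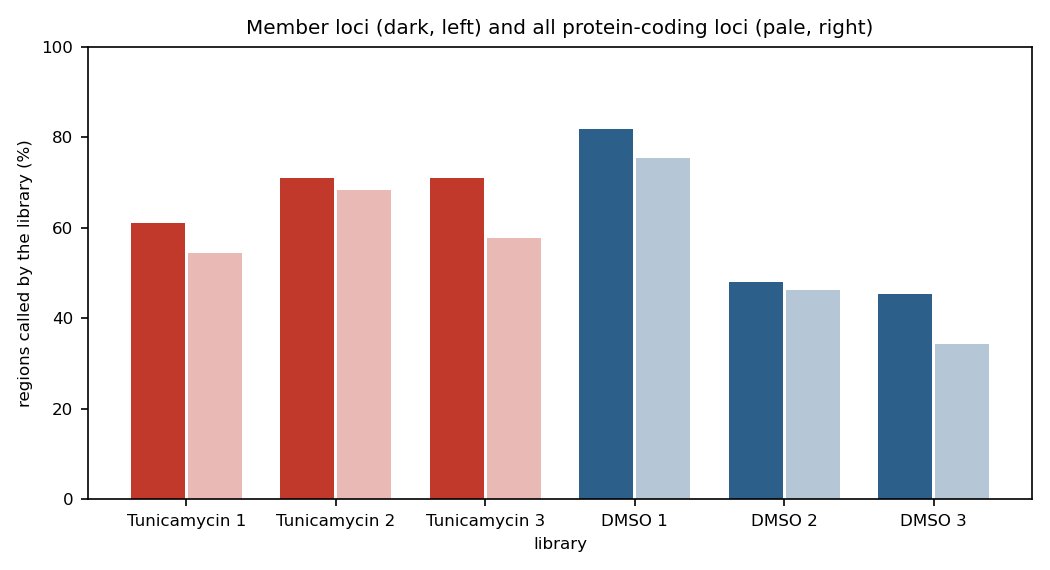
Percent of regions called by each library, for the 121 member regions (dark bars) and for all regions within 50 kb of a protein-coding gene (pale bars), tunicamycin left and DMSO right. In every library the dark bar is higher than the pale one, and the DMSO libraries span 45.5 to 81.8% of member regions, wider than the 61.2 to 71.1% of the tunicamycin libraries.

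For the question whether tunicamycin changed which member regions were open, calls per library were compared first. Of the 121 regions, 74, 86 and 86 were called in the tunicamycin libraries, against 99, 58 and 55 in the DMSO libraries. The tunicamycin values lay between those of the DMSO libraries. The mean was 67.8 ± 5.73% in tunicamycin and 58.4 ± 20.3% in DMSO libraries (SD, n = 3 each), a difference of 9.37 points that was smaller than the spread between the DMSO libraries. Over all union regions the means were 58.5 ± 7.70% in tunicamycin and 50.5 ± 20.8% in DMSO libraries, a difference of 8.02 points. With each list limited to its 28501 peaks of highest −log10 q, the member difference turned to −1.41 points, and without DMSO library 1 it was 21.1 points, against 4.13 without DMSO library 2 and 2.89 without DMSO library 3.

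Of all member regions, 1 was called in every tunicamycin library and no DMSO library (0.826%), against 0.683% of all union regions. The opposite pattern was found at 0 member regions, against 0.0976% of all regions. The separated region lay 7.79 kb outside the Kdm6b span, beyond its lower-numbered end and in no gene (chr11:69390407-69390718, 312 bp). Its deposited folds of 3.51, 3.82 and 3.57 in tunicamycin libraries 1 to 3 were low, at percentiles of 6.58, 15.2 and 7.14. It kept its calls in 3 tunicamycin and 0 DMSO libraries when peaks were kept at q-values up to 1e-05, and when a call had to cover 50% of a region, but with lists of equal length no library called it. A different region, 9.18 kb from the Asxl1 start (chr2:153336177-153336647), then had calls in 3 tunicamycin and 0 DMSO libraries, where all peaks gave 3 and 2. With the 50% cover, the Wnk4 promoter region at the Ezh1 locus joined the count. Without DMSO library 1 the count was 6, without tunicamycin library 1 it was 3, and without tunicamycin library 3 it was 2. The member regions called in all tunicamycin libraries and, of the DMSO libraries, in library 1 alone numbered 5 (4.13%, against 4.39% of all regions). For the other omissions the share over all regions was not counted. Leaving out tunicamycin library 1 or DMSO library 3 gave 1 region with the opposite pattern.

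Partial patterns were more frequent than full separation. Regions called in all 3 tunicamycin libraries and fewer DMSO libraries numbered 25 (20.7%, against 15.2% of all regions), and those called in all 3 DMSO and fewer tunicamycin libraries numbered 3 (2.48%, against 1.16%), at the Asxl1, Cbx7 and Kdm6b loci. Of the 25, 10 missed DMSO library 3 alone (8.26%, against 8.27%) and 9 missed DMSO library 2 alone (7.44%, against 1.35%). These 9, whose common pattern was noticed after the values were seen, comprised 3 at Bmi1 including its start, 3 at Asxl1, 2 at Cbx7 and 1 inside Ezh1. DMSO library 2 held 38217 peaks and DMSO library 3 held 28501, and what part the length of a list had in these counts was not tested. Called in tunicamycin library 2 alone were 7 member regions (5.79%, against 8.62% of all regions), in tunicamycin library 3 alone 8 (6.61%, against 3.49%), and in DMSO library 1 alone 13 (10.7%, against 12.4%).

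**Figure D4:**
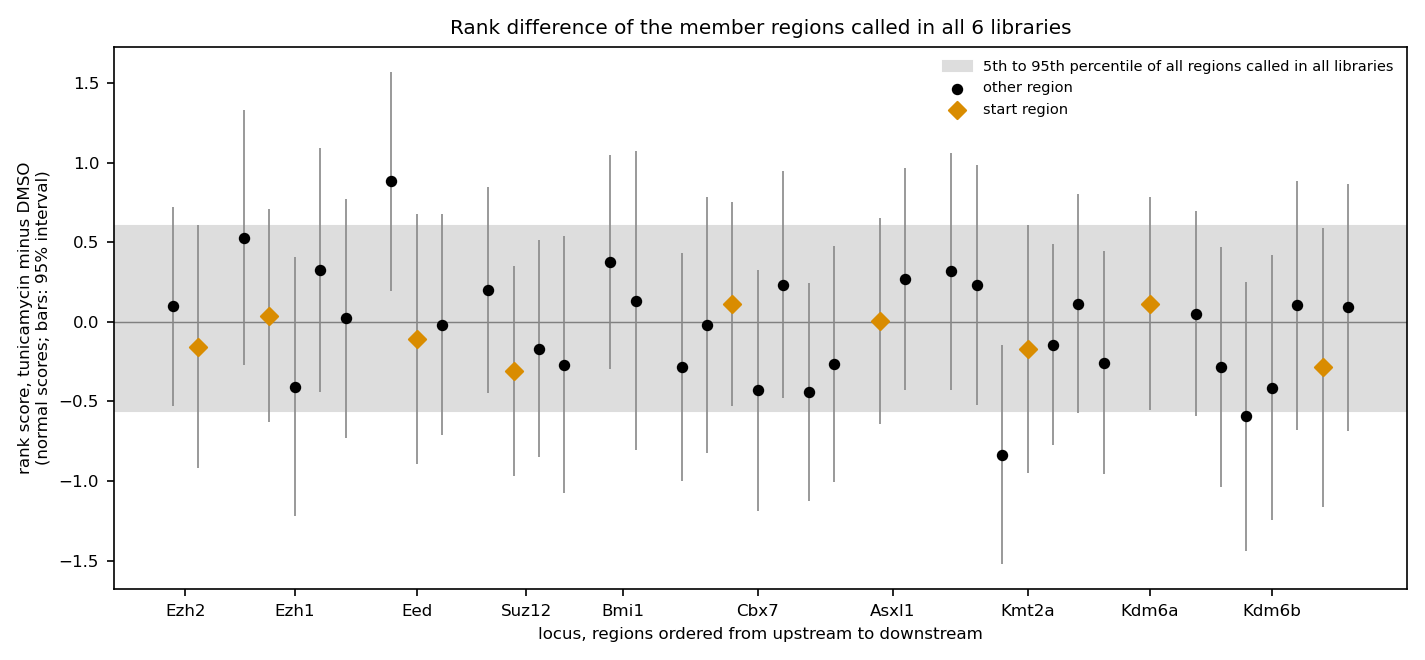
Difference in rank score, tunicamycin minus DMSO, of the 40 member regions called in all 6 libraries, by locus, with 95% intervals from limma. Diamonds mark the regions over gene starts, and the grey band holds the values from −0.56 to 0.60 between the 5th and 95th percentile of all 20810 regions. A region of Eed lies above the band and regions of Kmt2a and Kdm6b lie below it, while all start regions lie within it.

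To compare strength on an equal footing, the 20810 regions called in every library were ranked by fold within each library, and the ranks, turned into normal scores, were compared by limma with Benjamini-Hochberg adjustment. No member region passed an adjusted p of 0.05, and over all regions the share past it was 0%, with 0 of 20810 regions called in either direction and a smallest adjusted p of 0.541. At an unadjusted p of 0.05, limma counted 905 regions (4.35%), 2 of them among the 40 member regions. The member regions were evenly divided, 20 with a higher and 20 with a lower score in tunicamycin libraries, with a median difference of −0.01, against −0.02 and 48.4% higher over all regions.

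At the starts themselves every 95% interval included 0. Suz12 had a score difference of −0.31 ± 0.31 (SE, 95% interval −0.97 to 0.35), and Ezh2 one of −0.16 ± 0.36 (−0.92 to 0.61). For Asxl1 the difference was 0.00 ± 0.31 (−0.65 to 0.65), and for Kmt2a −0.17 ± 0.37 (−0.95 to 0.61). The other 5 starts tested ran from −0.29 at Kdm6b to 0.11 at Kdm6a and Cbx7. These intervals are wide, and the starts are not shown to be equal between treatments.

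The largest positive difference lay in an intergenic region upstream of Eed, 38.6 kb from its start (chr7:90019601-90020038). Among the shared regions it ranked at percentiles of 74.7, 71.4 and 64.1 in tunicamycin libraries, against 55.7, 35.4 and 20.5 in DMSO libraries. The groups did not overlap, and the score difference was 0.88 ± 0.32 (SE, limma adjusted p = 0.996). The ranks of 1 member region, this one, lay wholly above those of DMSO, against 4.66% of all shared regions.

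The largest negative difference lay 1.3 kb upstream of the Kmt2a start (chr9:44882586-44882911), within the gene Gm39326. It ranked at percentiles of 5.52, 9.30 and 6.09 in tunicamycin libraries, against 11.2, 33.7 and 37.3 in DMSO libraries. Here too the groups did not overlap, and the score difference was −0.83 ± 0.33 (SE, limma adjusted p = 0.996), the only member region wholly below DMSO, against 4.55% of all shared regions. The Kmt2a start, about 1 kb away, did not show this, as its tunicamycin values lay inside the DMSO range.

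The next differences overlapped between groups. They were 0.53 ± 0.38 at the Vps25 promoter of the Ezh1 locus (chr11:101253533-101254235) and 0.38 ± 0.32 at the Commd3 promoter of the Bmi1 locus. On the negative side they were −0.59 ± 0.40 inside Kdm6b (chr11:69401213-69401661) and −0.44 ± 0.32 at the Apobec3 promoter of the Cbx7 locus (chr15:79891533-79892772), each with its SE. DMSO library 3 stood apart at both the Vps25 and the Kdm6b region, with ranks among the shared regions at percentiles of 4.10 and 57.2, while DMSO libraries 1 and 2 stood at 40.8 and 28.2 for Vps25 and 8.77 and 11.6 for Kdm6b. Without DMSO library 3 the differences were 0.08 at Vps25, −0.11 inside Kdm6b, 0.61 at Commd3 and −0.29 at Apobec3. Leaving out DMSO library 1 gave 0.84 at Vps25, and leaving out DMSO library 2 gave 0.21 at Commd3. The value inside Kdm6b was −0.37 without tunicamycin library 1, and that at Apobec3 was −0.24 without tunicamycin library 2. None of these 6 regions changed sign under the alternatives run, and their adjusted p-values ran from 0.365 to 1.

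The rest of the pathway was described in 56 further genes in 5 lists, all of which matched the annotation. Of their 583 regions, 204 (35.0%) were called in all 6 libraries. The share was 25.1% over all union regions and 26.7% over those within 50 kb of a protein-coding gene. Of the 42 genes with a promoter sequence, 29 had a region called in all 6 libraries over the start, against 45.8% of 17491 protein-coding genes. By list, the starts called in all libraries numbered 6 of 8 for PRC2 core and accessory genes, 11 of 15 for PRC1, 5 of 5 for PR-DUB, 5 of 9 for COMPASS and trithorax, and 2 of 5 for the H3K4 and H3K27 demethylases. In limma 0 of the 204 regions passed. In tunicamycin libraries 80 were higher (39.2%) and 124 lower, with a median difference of −0.06. Over all regions called in all libraries, 48.4% were higher and the median difference was −0.02. The lists differed, from 31.8% higher for PR-DUB to 57.7% higher for PRC2 core and accessory genes. These shares were not tested.

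Among these genes, 1 of the 583 regions was called in all tunicamycin and no DMSO libraries (0.172%, against 0.683% of all regions), and 1 in all DMSO and no tunicamycin libraries (0.172%, against 0.0976%). The tunicamycin region lay 23.1 kb from Kmt2d, a methyltransferase of the COMPASS family, and overlapped the genes Ddn and B130046B21Rik (chr15:98807917-98808568). Its percentiles were 23.2, 33.2 and 27.7 in tunicamycin libraries 1 to 3. The DMSO region lay 15.3 kb from Rbbp4, a histone-binding subunit of PRC2, in no gene (chr4:129350692-129350996). In DMSO libraries 1 to 3 the percentiles of the Rbbp4 region were 67.3, 55.5 and 61.1.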

How the data were processed

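The members and gene lists were chosen with earlier results of these data known. Per the labels, 3 libraries came from tunicamycin and 3 from DMSO mice, and groups were taken from the treatment field. The authors deposited 1 peak list per library, with a display score per peak, its fold (ratio) over background, and its p- and q-value as −log10. The tools named in the submitters' processing notes are MACS2, Picard, featureCounts, Bowtie2 2.2.9 and Trim Galore 0.4.4, with build mm10. Not given in the sources used here are their roles, the read filters, any transposase offset applied to read ends, and the threshold of the peak calls. The smallest −log10 q deposited in each list corresponded to q-values of 0.0482 to 0.04999.

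Per library, 109 to 138 peaks on other sequences were left out. Union regions, calls and within-list percentiles were computed in Python 3.11.15 with NumPy 2.4.6, pandas 2.3.3 and SciPy 1.17.1, and figures drawn in matplotlib 3.10.9. Gene spans, starts and promoter windows came from RefSeq for GRCm38.p6. Exons and introns were not distinguished. Ranks among regions called in all 6 libraries were converted to normal scores and fitted in limma 3.58.1 (R 4.3.3) with Benjamini-Hochberg adjustment over all 20810 regions. The merging and the fit were tested on simulated data. Calls in 3 against 3 libraries cannot reach a two-sided exact p below 0.10, so counts of calls have no test.

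Named were all 10 members, the region over or nearest to each start, regions separated between groups, the 3 largest differences in each direction, the strongest region of each locus, and other pathway genes with a separated region. Further regions were picked as examples with their values known. The alternatives tried were peaks with q of at most 1e-05, lists of equal length, calls with 50% cover, distances of 10 kb or the gene span alone, ranks by −log10 p, log2 of the deposited fold, the replicate block, and each library left out in turn. A further gene of the HSC marker list is not reported here.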

Additional observations from a re-analysis of the deposited data

How the results depend on the processing

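Of the 121 member regions, 40 were called in every library, and 26 when a call had to cover 50% of the region. Within 10 kb of the genes the count was 21 of 56 regions, and within the gene spans 15 of 35. With a library left out it was 40 to 50 of 121. The matching shares over all regions were not counted under these alternatives. Regions called in every tunicamycin and no DMSO library (1 with all peaks) numbered 2 with the 50% cover, 0 in the gene spans and 1 to 6 with a library left out, and the opposite pattern (0 with all peaks) 0 to 1. The difference in member regions called (9.37 points) ran from 2.89 to 21.1 with a library left out and turned to −1.41 with lists of equal length. The difference in median percentile by fold over member regions was −6.16 (44.7 ± 3.27 in tunicamycin and 50.9 ± 10.2 in DMSO libraries, SD, n = 3 each) and ran from −12.1 to −2.67. At the other pathway genes, the gene spans alone held 169 regions. Of these, 71 were called in every library and 0 in all libraries of either group alone. With q of at most 1e-05, 2 of 478 regions were called in all DMSO libraries alone. No limma alternative called a region, with 624 to 2130 at an unadjusted p of 0.05. Same-numbered libraries did not deviate together (correlations of −0.08, −0.01 and 0.03), and the replicate block gave 0 calls, with 917 at an unadjusted p of 0.05. Over the 40 member regions the difference in median rank score was −0.08 and lay between −0.19 and 0.04 under the alternatives, on both sides of 0. The remaining values kept their direction and stayed within the spread between libraries or within 1.5 times the count. Lists of peaks carry no depth, so a region missing from a short list may lie below its calling threshold.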
